A study of Rattus norvegicus with 8 samples.

Results

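The neuregulin and epidermal growth factor (EGF) signalling genes described here are 7 rat genes, namely the ligand genes Nrg1, Hbegf, Areg and Tgfa and the receptor genes Erbb2, Erbb3 and Egfr. Their probes were found through the RefSeq accession that the array design gives each probe, a step that used no measured value. The genes themselves were chosen with earlier results of these data known. They had 10 probes of the 30367 on the array, which named 15154 genes in all. Erbb2 had 3 probes, Tgfa had 2 and the other genes had 1 each. All 10 probes were well above background on all 8 arrays and passed the filter on dim probes.

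The ligands of this family are made as membrane-bound precursors, and proteases of the ADAM family release the active part. They bind receptor tyrosine kinases that pair with one another. Erbb2 binds no known ligand of its own and Erbb3 has little kinase activity, so the pair of them works as one neuregulin receptor, while Egfr responds to amphiregulin, heparin-binding EGF and transforming growth factor alpha. In the peripheral nerve, neuregulin 1 on axons is known as the signal through Erbb2 and Erbb3 that supports Schwann cells and sets myelin thickness. Activated receptors feed the ERK kinase cascade, whose target genes include the feedback inhibitors of the Sprouty and Dusp families.

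The cells were primary cultures of dorsal root ganglia taken from Wistar rat pups aged 0 to 5 days and of both sexes. After 2 to 3 days in serum-free medium with the mitotic inhibitors fluorodeoxyuridine and uridine, which all groups shared, 100 ng/ml of a human protein was added for 5 days. The groups were the P61S form (3 arrays), the double mutant P61S/R100E (3 arrays) and the wild type form (2 arrays), and no untreated culture was analysed here. The labels leave the source of the replicates unstated, so the p-values measure only the spread between these samples, which may be technical. Each array read the RNA of a mixed culture, in which fewer cells of a type and less RNA per cell cannot be told apart.

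The values below are log2 signals of a probe minus log2 of the 75th percentile signal of its array, called scaled log2 signals, and they compare arrays within a probe, not one gene with another. The 75th percentile ran from 3267 to 5269 intensity units over the arrays, and 78.7% to 88.8% of the spots were well above background. All arrays lay on 1 slide and came from 1 scan. Wild type replicate 2 stood apart, with correlations of 0.983 to 0.989 with the other arrays over the 23585 probes tested. Slide column 4 held the 2 wild type arrays and no other, so that column and the wild type protein cannot be told apart. Of the marker lists, 13 of 13 pan-neuronal, 8 of 8 Schwann cell and 7 of 7 fibroblast genes on the array were well above background on every array. Among 7 satellite glia genes, Kcnj10 was not well above background on 5 arrays.

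Nrg1, the neuregulin 1 gene (probe A_64_P281840), had its lowest signals with P61S/R100E. Its scaled log2 signals were -3.00, -3.19 and -3.34 with P61S/R100E, -2.82, -2.74 and -2.83 with P61S, and -2.81 and -2.16 with wild type. All P61S/R100E arrays lay below all 5 others, and wild type replicate 2 lay far above the rest. The order of the means was P61S/R100E (-3.18 ± 0.17, SD, n = 3), P61S (-2.80 ± 0.05, SD, n = 3) and wild type (-2.48 ± 0.46, SD, n = 2), and the last 2 groups overlapped. The probe reads an accession of one Nrg1 transcript, so the neuregulin isoforms were not separated here.

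Hbegf, which encodes heparin-binding EGF, a ligand of Egfr (probe A_64_P041521), also had its lowest signals with P61S/R100E. Its scaled log2 signals were -0.59, -0.62 and -0.92 with P61S/R100E, -0.36, -0.36 and -0.33 with P61S, and -0.46 and -0.39 with wild type. The P61S/R100E arrays again lay below all 5 others, replicate 3 lowest, and the P61S arrays lay above both wild type arrays. The means were -0.71 ± 0.18 (SD, n = 3), -0.35 ± 0.02 (SD, n = 3) and -0.42 ± 0.05 (SD, n = 2), in that order of groups. The 2 spots of this probe on an array differed by at most 0.22, and the P61S and wild type groups lay apart by less than that.

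Areg, the amphiregulin gene, was read from 10 spots per array (probe A_42_P791677). Its scaled log2 signals were -1.24, -1.56 and -1.37 with P61S/R100E, -1.18, -1.27 and -1.24 with P61S, and -1.17 and -1.35 with wild type. The groups overlapped in every comparison. The SD among the 10 spots of an array was 0.027 to 0.046, and the SD among arrays was 0.16 with P61S/R100E, 0.04 with P61S and 0.13 with wild type. The scanner software had marked 12 of the 80 Areg spots as outliers, and they were left out.

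Tgfa, the transforming growth factor alpha gene, had 2 probes with unlike orders of the group means. The brighter one (A_44_P310168) read -1.14, -1.60 and -1.61 with P61S/R100E, -1.68, -1.71 and -1.76 with P61S, and -1.41 and -1.66 with wild type. There P61S was the lowest group, and it overlapped with neither of the others. The second probe (A_64_P122865) read -2.36, -2.51 and -2.18 with P61S/R100E, -2.43, -2.22 and -2.38 with P61S, and -2.51 and -1.83 with wild type, and all groups overlapped. The gap between the spots of the brighter probe reached 0.36 on an array, more than the difference between any 2 of its group means.

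Erbb2, the receptor that pairs with the others, had its highest signals with P61S/R100E on its brightest probe. That probe (A_64_P038817), of 1 spot, read 0.89, 0.76 and 0.94 with P61S/R100E, 0.67, 0.58 and 0.65 with P61S, and 0.73 and 0.63 with wild type. Every P61S/R100E array lay above every other array, by 0.03 at the closest. A second probe (A_64_P109493) read -1.25, -1.24 and -1.06 with P61S/R100E, between -1.25 and -1.22 with P61S, and -1.24 and -1.31 with wild type, and P61S/R100E overlapped with both other groups. The third probe (A_64_P038812) was the dimmest of the 3 and ran from -6.91 to -5.44 with all groups overlapping. Both of these extremes were wild type arrays. Its SD within groups of 0.54 lay at the 91.6th percentile of all tested probes, and those of the other 2 Erbb2 probes (0.07 each) lay at the 9.4th and 9.5th.

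Erbb3, the neuregulin-binding partner of Erbb2 in Schwann cells (probe A_64_P080643), read -1.60, -1.75 and -1.81 with P61S/R100E, -1.63, -1.62 and -1.69 with P61S, and -1.69 and -1.36 with wild type. The groups overlapped throughout, and wild type replicate 2 was the highest array. Egfr, the receptor of the EGF-type ligands (probe A_44_P346408), read -0.34, -0.37 and -0.30 with P61S/R100E, -0.50, -0.47 and -0.50 with P61S, and -0.34 and -0.35 with wild type. The 3 P61S arrays were the lowest, and the other 2 groups overlapped. Egfr varied less within groups than nearly all other probes did, with an SD of 0.026 at the 0.19th percentile of all tested probes.

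**Figure D1:**
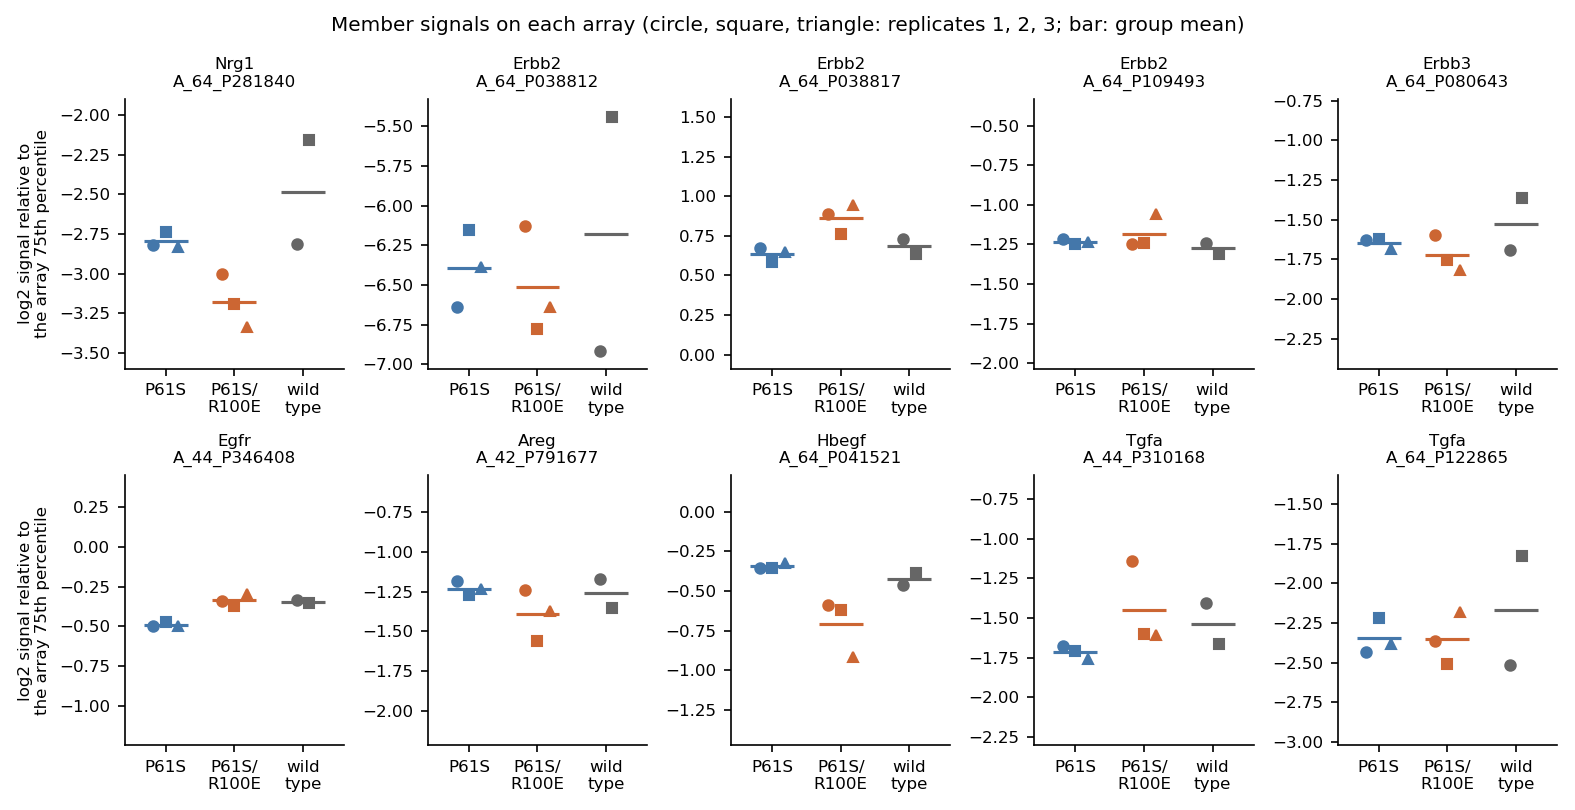
Scaled log2 signal (y axis, log2 units relative to the 75th percentile of the array) of the 10 probes on each array of the 3 groups (x axis). Points are arrays, their shapes give the replicate number, bars are group means, and every panel spans the same number of log2 units. The P61S/R100E arrays are the lowest for Nrg1 (-3.00 to -3.34) and Hbegf (-0.59 to -0.92), and the P61S arrays are the lowest for Egfr.

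P61S/R100E was set against P61S, a protein that shares the P61S change and lacks R100E. Hbegf was lower with the double mutant by 1.29-fold (log2 difference -0.36, SE 0.11, 95% bounds -0.61 and -0.12). Nrg1 was lower by a log2 difference of a like size (-0.38, SE 0.18, bounds -0.80 and 0.04). The brightest Erbb2 probe was higher by 1.17-fold (0.23, SE 0.083, bounds 0.03 and 0.43) and Egfr by 1.11-fold (0.15, SE 0.069, bounds -0.01 and 0.32). None of these 4 values passed.

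Among the 10 member probes limma called 0 at an adjusted p under 0.05, as it called 0% of the 23585 probes tested, and every member's adjusted p was 0.999. At an unadjusted p under 0.05, 1 member probe was higher (Erbb2 A_64_P038817), against 1.94% of all probes, and 1 was lower (Hbegf), against 2.07%. The arrays of the 2 groups did not overlap in 3 of 10 member probes with P61S/R100E higher (Erbb2 A_64_P038817, Egfr and Tgfa A_44_P310168), against 5.75% of all probes, and in 2 with it lower (Nrg1 and Hbegf), against 8.23%. Over the brightest probe of each of the 7 genes the median log2 difference was -0.08, beside -0.02 over all probes.

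The bounds of the remaining members held 0. Areg differed by -0.16 (SE 0.11, bounds -0.42 and 0.09), and by -0.08 without P61S/R100E replicate 2. Erbb3 differed by -0.08 (SE 0.11, bounds -0.34 and 0.19), and by -0.14 and -0.03 without P61S/R100E replicates 1 and 3. The brighter Tgfa probe differed by 0.27 (SE 0.15, bounds -0.08 and 0.61), and by 0.11 (SE 0.11) without P61S/R100E replicate 1, its highest array. The second Tgfa probe differed by -0.01 (SE 0.19, bounds -0.45 and 0.43), so the interval of each Tgfa probe holds the value of the other. For Erbb2, the second probe differed by 0.05 (SE 0.084, bounds -0.15 and 0.25), so its interval holds the value of the brightest probe as well as 0. Without P61S/R100E replicate 3 it differed by -0.01. The dimmest Erbb2 probe differed by -0.12 (SE 0.38, bounds -1.01 and 0.78). P61S replicates 1, 2 and 3 lay in slide columns 1, 2 and 1, and those of P61S/R100E in columns 3, 2 and 3. The groups shared only column 2, so column and protein can hardly be told apart here. With the column number as a linear covariate Hbegf differed by -0.27 (SE 0.19) and Nrg1 by -0.46 (SE 0.33). Erbb2 differed by 0.18 (SE 0.16) and Egfr by 0.10 (SE 0.13), all with the same signs and wider errors. In that fit the median of all probes was -0.11, and 0 of the 7 genes reached an unadjusted p under 0.05 on their brightest probe.

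Against the wild type, P61S/R100E was again lower in both of the ligand genes named above. These values share the P61S/R100E arrays with the comparison above. Nrg1 was lower by 1.62-fold (log2 difference -0.69, SE 0.20, 95% bounds -1.16 and -0.23) and Hbegf by 1.22-fold (-0.29, SE 0.12, bounds -0.56 and -0.01). The brightest Erbb2 probe was higher by 1.13-fold (0.18, SE 0.093, bounds -0.04 and 0.40). Egfr differed by 0.01 (SE 0.077, bounds -0.17 and 0.19), and its sign turned in 4 alternatives. It was -0.09 with normexp and quantile normalization, -0.01 without P61S/R100E replicate 3, and -0.0012 without wild type replicate 2, with the value under the replicate block nearer still to 0.

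limma called 0 of 10 member probes in the comparison with wild type (0% of all probes), and the adjusted p was 0.746 for Nrg1, Hbegf and Erbb2 A_64_P038817 alike. At an unadjusted p under 0.05, 0 member probes were higher, against 1.6% of all probes, and 2 were lower (Nrg1 and Hbegf), against 3.44%. The groups did not overlap in 1 probe with P61S/R100E higher (Erbb2 A_64_P038817), against 5.86% of all probes, and in the same 2 with it lower, against 9.2%. The size of the Nrg1 difference turned on the wild type arrays. It was -0.37 (SE 0.15) without wild type replicate 2, which stood apart over all probes, and -1.02 (SE 0.15) without wild type replicate 1. In the latter fit, where the lone array is assumed to vary like the other groups, limma gave Nrg1 an adjusted p of 0.032 and called 1283 probes in all. Over all alternatives for Nrg1 the adjusted p ran from 0.032 to 1.00. Hbegf differed by -0.18 (SE 0.083) without P61S/R100E replicate 3 and by -0.17 (SE 0.11) with normexp and quantile normalization. Its unadjusted p from limma was under 0.05 in 6 of 19 alternatives against wild type, and in 19 of 20 against P61S.

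Areg differed by -0.13 (SE 0.12) and Erbb3 by -0.20 (SE 0.12, bounds -0.49 and 0.10) against wild type. The Tgfa probes differed by 0.09 (SE 0.16) and -0.18 (SE 0.21). The 2 dimmer Erbb2 probes differed by 0.09 (SE 0.093) and -0.34 (SE 0.42). These values turned on single arrays, mostly of the wild type. Without wild type replicate 2 Erbb3 differed by -0.03, and without replicate 1 by -0.36. For Areg these values were -0.22 and -0.04, and it differed by -0.05 without P61S/R100E replicate 2 and -0.21 without replicate 1. The dimmest Erbb2 probe differed by 0.40 without wild type replicate 2 and -1.07 without replicate 1, and the second Tgfa probe by 0.16 and -0.53. The brighter Tgfa probe differed by -0.04 and 0.21, and by -0.07 without P61S/R100E replicate 1. Erbb2 A_64_P109493 differed by 0.03 without P61S/R100E replicate 3.

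**Figure D2:**
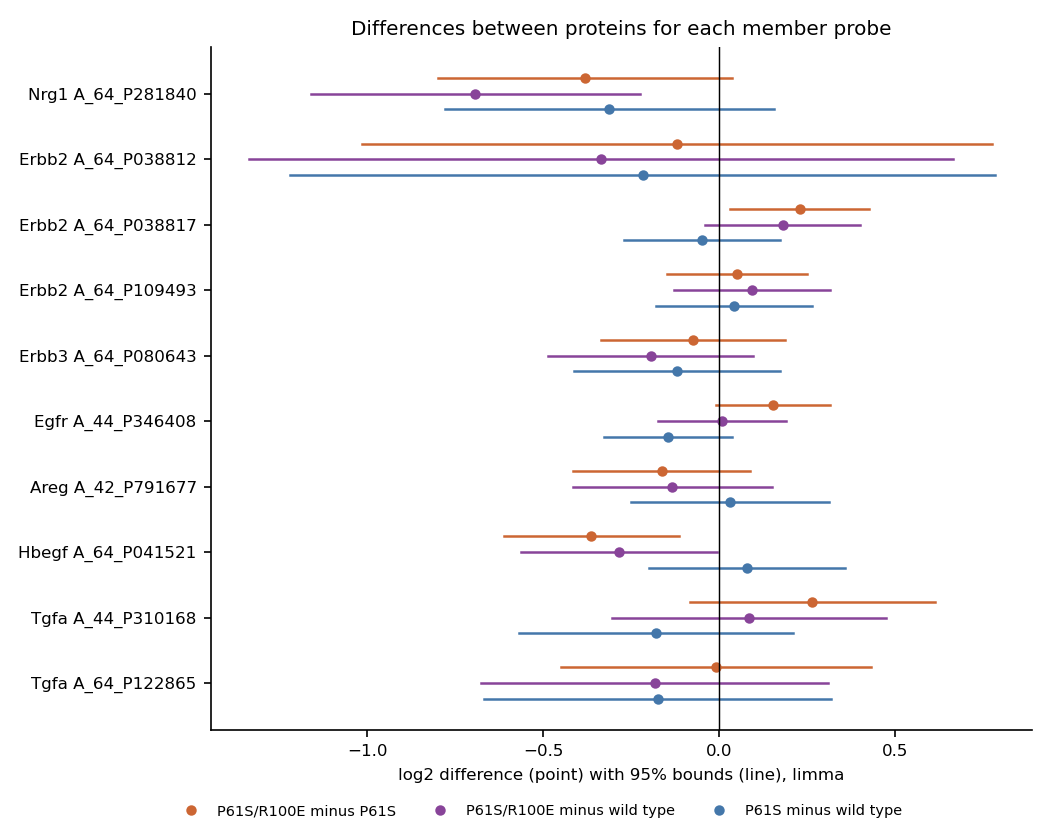
Log2 difference (x axis, log2 units) of each member probe (y axis) in the 3 comparisons, with points for the limma estimate and lines for its 95% bounds. The bounds of Hbegf lie below 0 in both comparisons of P61S/R100E, those of Nrg1 only against wild type, and those of Erbb2 A_64_P038817 lie above 0 only against P61S.

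The P61S and wild type proteins, which differ by P61S alone, were also compared, with the wild type arrays in a slide column of their own. Egfr was lower with P61S by 1.11-fold (log2 difference -0.14, SE 0.077, bounds -0.33 and 0.04) and did not pass. Nrg1 differed by -0.31 (SE 0.20), and by 0.02 (SE 0.15) without wild type replicate 2. Hbegf differed by 0.08 (SE 0.12), the brightest Erbb2 probe by -0.05 (SE 0.093), Erbb3 by -0.12 (SE 0.12) and Areg by 0.03 (SE 0.12). The signs of Erbb3 and Areg turned without wild type replicate 2, to 0.04 and -0.06, and that of Erbb2 when arrays were centred on the median, to 0.01, and without wild type replicate 1, to 0.00062. Without that array Nrg1 differed by -0.64 (SE 0.15).

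limma called 0 of 10 member probes between P61S and wild type, where 0% of all probes were called. At an unadjusted p under 0.05 there were 0 member probes in either direction, against 0.691% of all probes higher and 1.38% lower with P61S. The groups did not overlap in 1 probe with P61S higher (Hbegf), against 7.39% of all probes, and in 2 with it lower (Egfr and Tgfa A_44_P310168), against 9.23%.

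**Figure D3:**
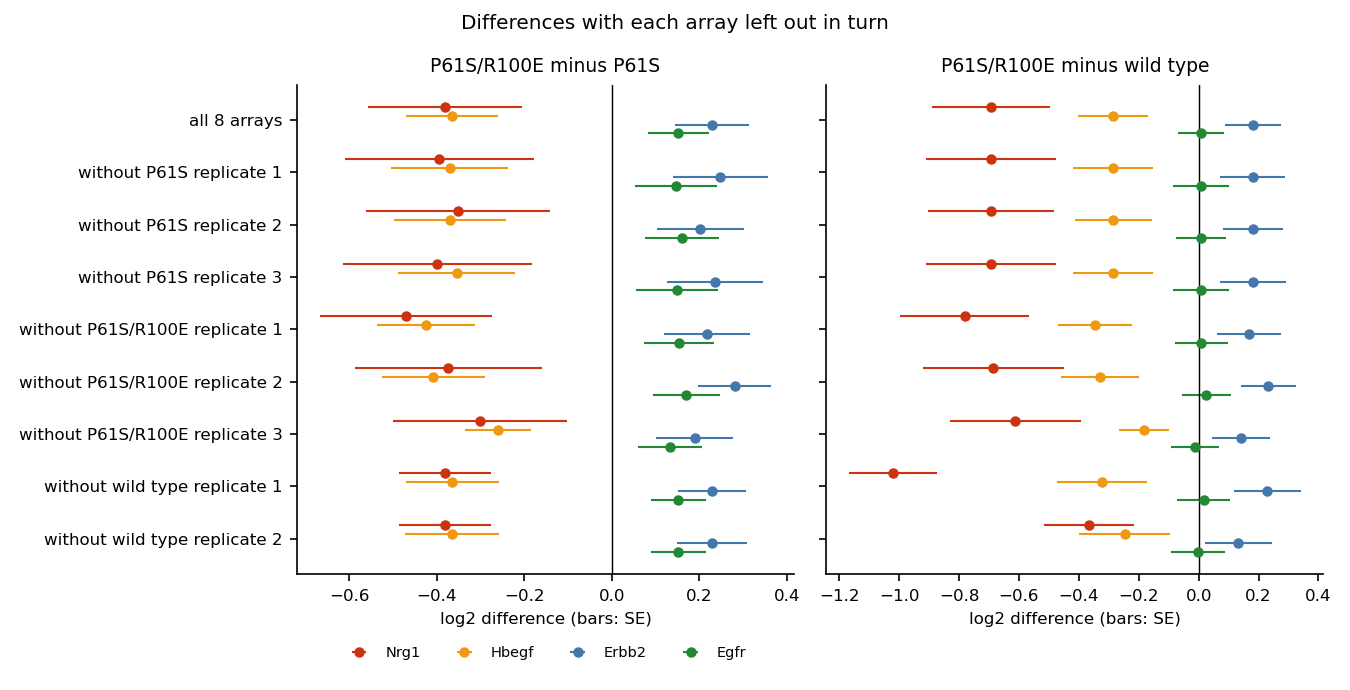
Log2 difference (x axis, log2 units, bars are SE) of Nrg1, Hbegf, the brightest Erbb2 probe and Egfr with all 8 arrays and with each array left out (y axis), against P61S (left) and wild type (right). Against P61S all 4 kept their direction, Hbegf between -0.42 and -0.26 and Nrg1 between -0.47 and -0.30. Against wild type Nrg1 ran from -1.02 to -0.37.

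Of 8 other genes of the family, 5 were tested. Btc, which encodes betacellulin, a ligand of Egfr and Erbb4 (probe A_64_P043767), read -4.02, -3.84 and -4.08 with P61S/R100E, -4.55, -4.55 and -4.69 with P61S, and -4.47 and -4.23 with wild type. The P61S/R100E arrays lay above all others. The log2 difference was 0.62 (SE 0.11, 1.53-fold) against P61S and 0.37 (SE 0.12, 1.29-fold) against wild type, and limma's adjusted p was 0.384 and 0.746, so Btc did not pass either. Btc kept its direction without each array, from 0.55 to 0.67 against P61S and from 0.25 to 0.49 against wild type.

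Egf, the epidermal growth factor gene, had a brighter probe that differed by -0.18 (SE 0.12) against P61S and -0.25 (SE 0.13) against wild type. Its dimmer probe, above background on 6 of 8 arrays, differed by -0.19 (SE 0.41) and -0.86 (SE 0.46). It thus passed the filter without being above background throughout every group, and such a filter can favour probes high in 1 group. Ereg, the epiregulin gene, differed by 0.04 (SE 0.24) and -0.04 (SE 0.27). The neuregulin 4 gene Nrg4 ran from -6.72 to -4.32 within the P61S/R100E group alone, so that its difference of 0.40 against P61S had an SE of 0.68. Nrg2 was near background, and its tested probe was above it on 6 of 8 arrays. Erbb4, the neuregulin receptor of other neural cells, was above background on 1 of 8 arrays and was not tested. Epgn and Nrg3 had no probe named by an accession.

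The genes that release or carry the ligands gave no call. Of 13 listed, 11 were tested, and 0 of 11 reached an unadjusted p under 0.05 in any of the 3 comparisons. Their median log2 difference was 0.06 against P61S, where 10 of 11 values were positive and the median of all probes was -0.02, and -0.08 against wild type. Adam17, the main shedding protease of the EGF-type ligands, differed by 0.01 (SE 0.18) against P61S and -0.32 (SE 0.20) against wild type. Bace1, a protease that cuts neuregulin 1, differed by 0.31 (SE 0.23) and 0.28 (SE 0.26).

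The adaptors and kinases behind the receptors were alike in this. Of 24 tested, 0 reached an unadjusted p under 0.05 in any of the 3 comparisons, and the median was -0.02 against P61S. Against wild type it was -0.18 for P61S/R100E and -0.15 for P61S, beside -0.06 and -0.04 over all probes. The mean scaled log2 signal of these 24 genes was -0.82 on wild type replicate 2 and between -1.27 and -1.07 on the other 7 arrays, and the part of that array in the medians was not tested. Of the receptors' negative regulators, 9 of 13 were tested. Their median was 0.08 against P61S and -0.10 against wild type. Errfi1, which inhibits the Egfr kinase, differed by -0.05 (SE 0.080) against P61S and 0.02 (SE 0.090) against wild type. Pa2g4, an Erbb3-binding protein, was 0.32 lower with P61S than with wild type on the log2 scale (SE 0.10), and limma's adjusted p was 0.999. It was the 1 gene of this list at an unadjusted p under 0.05, where 1.38% of all probes were lower.

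The early and feedback genes of the ERK cascade included several with lower signals with P61S/R100E, and 0 of 18 passed the test. Against P61S, 5 of 18 were lower at an unadjusted p under 0.05 (2.07% of all probes were) and 1 was higher (1.94%). The median was -0.14, beside -0.02 over all probes. Dusp5, a phosphatase of ERK, read -1.79, -1.54 and -1.77 with P61S/R100E, -1.26, -0.91 and -1.23 with P61S, and -1.06 and -1.18 with wild type. It differed by -0.57 (SE 0.13) against P61S and -0.59 (SE 0.14) against wild type, and the P61S/R100E arrays lay below all others.

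Spry4, a Sprouty inhibitor of receptor tyrosine kinase signalling, read -0.61, -0.57 and -0.77 with P61S/R100E, between -0.33 and -0.30 with P61S, and -0.40 and -0.36 with wild type. It differed by -0.33 (SE 0.082) against P61S and -0.27 (SE 0.092) against wild type. The other 3 lower genes, named after their values were seen, were Fosl1 (-0.26, SE 0.077), Etv4 (-0.81, SE 0.26) and Ier3 (-0.22, SE 0.080), and the higher one was Myc (0.36, SE 0.12). limma's adjusted p was 0.654 for Dusp5 and 0.823 for Spry4 against P61S.

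Against wild type, P61S had a median of -0.12 over these 18 genes (-0.04 over all probes), and 0 reached an unadjusted p under 0.05. For P61S/R100E against wild type, 6 of the 18 were lower at that threshold (3.44% of all probes were) and 0 were higher. The median was -0.26, beside -0.06 over all probes. Etv4, an ETS factor induced by ERK, differed by -1.04 (SE 0.29, 2.06-fold), by -0.56 without wild type replicate 2 and by -1.53 without replicate 1, where it passed (limma, adjusted p = 0.033, from 0.033 to 1.00 over its alternatives). The count was 1 without wild type replicate 2, where the median was -0.17, and 3 without P61S replicate 3. It was 2 with only the 2 groups compared, 2 with the replicate number as a block and 3 with arrays centred on the median. Over all probes, 724 of 23516, 778 of 23585 and 1170 of 23585 reached that threshold in these fits, in either direction. In the main fit 1188 of 23585 did, and 845 of 24577 without P61S replicate 3. Against P61S the count was 1 once the slide column entered the fit, where 1210 of 23585 probes reached that threshold in either direction (946 in the main fit). The count was 3 without P61S replicate 2, P61S replicate 3, P61S/R100E replicate 2 or P61S/R100E replicate 3, and without P61S replicate 2 the median was -0.02. Over all probes 925 of 23596, 766 of 24577, 1089 of 23873 and 1128 of 23601 reached the threshold, in that order of fits. An overlapping list had already been described in these data, so these counts are no independent support.

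**Figure D4:**
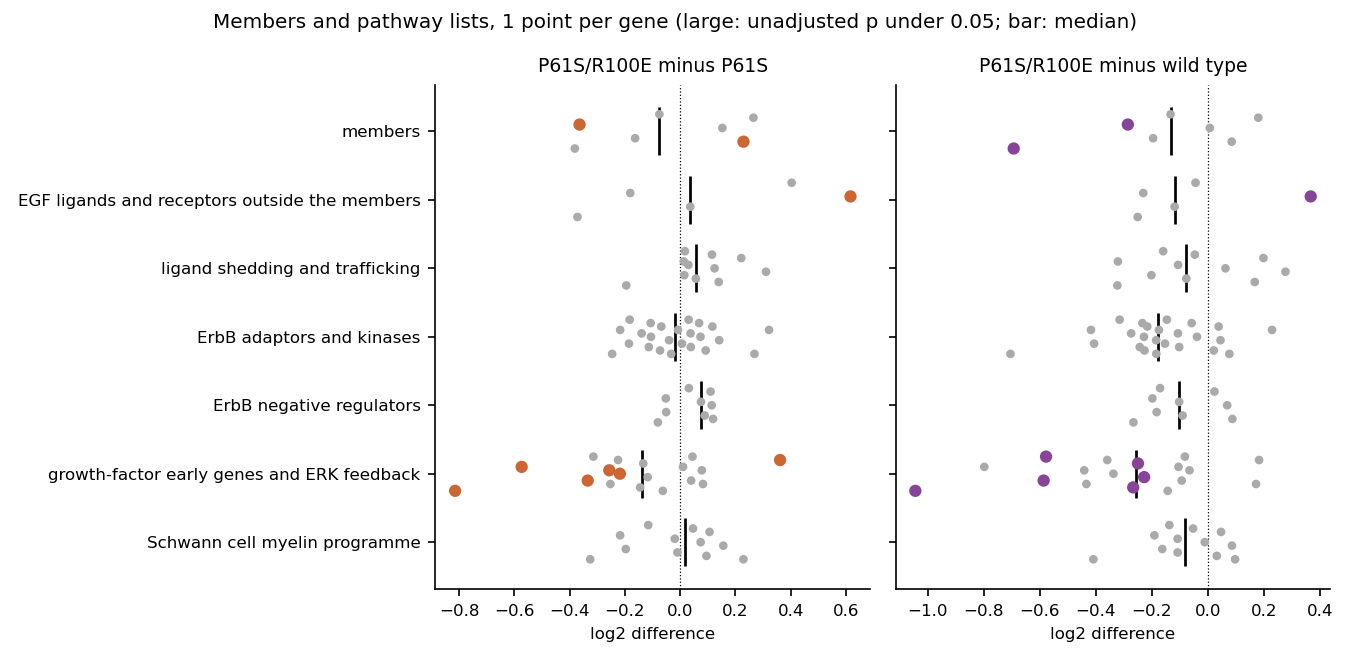
Log2 difference (x axis, log2 units) of each gene of the members and the 6 pathway lists (y axis), P61S/R100E against P61S on the left and against wild type on the right. Large coloured points had an unadjusted p under 0.05, small grey points did not, and black bars are medians. The early and feedback genes have medians of -0.14 and -0.26, and 0 genes of the figure passed the adjusted threshold.

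The myelin genes of Schwann cells, which neuregulin signalling is known to control, showed 0 of 12 at an unadjusted p under 0.05 in any of the 3 comparisons. Their median was 0.02 against P61S and -0.08 against wild type, and their values lay between -0.33 and 0.23 against P61S. Schwann cell markers as a list had a median of 0.02 against P61S and 0.00 against wild type. Pan-neuronal markers had medians of 0.00 and -0.08. Of these 13 genes 1, the neuronal tubulin gene Tubb3, reached an unadjusted p under 0.05 against P61S (0.35, SE 0.076). Of all probes, 1.94% were higher at that threshold. Satellite glia markers had medians of 0.02 and 0.01. Macrophage markers, 9 of 10 tested, had medians of 0.04 and 0.12, beside -0.02 and -0.06 over all probes. Against wild type 2 were higher at an unadjusted p under 0.05 (Ptprc and Adgre1), as were 1.6% of all probes. Endothelial markers, 3 of 5 tested, had medians of -0.18 and -0.03.

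Fibroblast markers differed in the same direction as Egfr and the brightest Erbb2 probe between P61S/R100E and P61S. All 7 values were positive, from 0.0017 to 0.26, with a median of 0.16, and 0 of 7 reached an unadjusted p under 0.05. With the slide column in the fit the median was 0.0069, where that of all probes moved from -0.02 to -0.11. Over the alternatives, 0 to 3 of the 7 genes were higher at an unadjusted p under 0.05. There were 3 with the variance trend and without P61S/R100E replicate 2. In these fits 974 of 23585 and 1089 of 23873 probes reached that threshold, in either direction. The log2 of their summed scaled signal ran from 7.26 to 7.53 with P61S/R100E, 7.18 to 7.32 with P61S and was 7.33 on both wild type arrays. The median against wild type was 0.08. The part of fibroblast content in the Egfr and Erbb2 values was not tested.

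For each member, the gene whose scaled log2 signals followed it most closely over the 8 arrays was taken by the root mean square distance after centring each on its own mean. For Nrg1 it was C1ql1, a secreted C1q-like protein gene, at a distance of 0.069 where the median over 12147 genes was 0.35. For Hbegf it was Tifa, an adaptor of NF-kappa-B signalling (0.041, median 0.24). The closest profile to Egfr was that of Ssr1, a subunit of the translocon-associated complex of the endoplasmic reticulum (0.020, median 0.16), and to Erbb2 that of Slc20a2, a phosphate transporter (0.025, median 0.19). Areg was nearest to the metallothionein gene Mt2A (0.046), Tgfa to Zbed3 (0.033) and Erbb3 to Tmem39a (0.030). These matches describe the 8 arrays only and carry no test.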

How the data were processed

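The 8 one-colour arrays were read with Agilent Feature Extraction 10.7.3.1 (protocol GE1_107_Sep09, design 028279, built on rn4), per the file headers. The deposited intensity of a spot is background-subtracted and detrended within its array, per the file headers, and not normalized between arrays. The authors' deposited table of log2 values (22018 probes) served as an alternative. Its array medians of 9.82 to 10.33 differed, so it was not centred between arrays, and how it was made is not given in the sources used here. RNA with an integrity number under 8.0 had been discarded, per the labels' protocols. The name of the protein is not reported here.

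Spots of a probe were averaged as log2 signals without spots marked as outliers, and the 75th percentile of the array's 58717 non-control spots was subtracted. Probes were named through RefSeq (GRCr8 table, 17998 of 30367 probes named), so no coordinates are given. Tested probes had all spots well above background on all arrays of 1 group or more. One limma fit (limma 3.58.1, R 4.3.3) of 3 group means over 8 arrays, with 5 residual and 1.93 prior degrees of freedom, gave the differences, two-sided, with Benjamini-Hochberg adjustment over 23585 probes at 0.05. The fit was tested on simulated data of independent normal values with known changes. These held no outlying array and no slide column, so they check the code only. The number of arrays limits the precision. Alternatives covered the background correction, scaling, filter, outlier spots, blocks, variance model and each array. The files hold median but not mean spot signals, so normexp used the medians. Members and lists were chosen with earlier results of these data known. Named list genes were the 2 with the smallest unadjusted p below 0.05 per list and comparison. Adam17, Bace1, Errfi1, Tubb3, Ptprc, Adgre1, Fosl1, Ier3 and Myc were named outside this rule, after their values were seen. Deviations from the group mean correlated at -0.20 to 0.17 over 7 same-numbered pairs of arrays. With 2 or 3 arrays per group the deviations are tied to one another, so they cannot decide whether the numbers pair the samples. The main fit did not pair them, and the replicate block was an alternative. Tables used pandas 2.3.3 and numpy 2.4.6 in Python 3.11.15, and figures used matplotlib 3.10.9.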

Additional observations from a re-analysis of the deposited data

How the results depend on the processing

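The count of member probes called was 0 in every comparison and alternative run, except for 1 (Nrg1) against wild type without wild type replicate 1, so leaving out single arrays gave 0 to 1. Over all probes, the count for P61S/R100E against P61S went from 0 to 1 with the deposited values, with a filter on all arrays and at an adjusted p under 0.10, and to 6 with a variance trend and robust hyperparameters. For P61S/R100E against wild type it was 1 in each of these 4 settings and 1 with either quantile normalization (normexp or processed signal), which also gave 1 for P61S against wild type. Leaving out 1 array gave 0 to 3, 0 to 1283 and 0 to 298 calls in the 3 comparisons, the highest counts against wild type coming without wild type replicate 1. With the replicate block (the replicate number as a covariate) the count was 0 in all 3 comparisons. Of 716 values of single probes under the alternatives, 714 stayed on their side of the threshold and 2 passed it (Nrg1 and Etv4 against wild type, both without wild type replicate 1), and 23 had the opposite sign to the value reported. The median of all probes shifted by under 0.1 with the scalings. Signal over background limits the dim Erbb2 probe, Nrg2 and Erbb4.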
